A study of Mus musculus with 10 samples.

Results

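The genes described here are 10 genes of cytosolic DNA sensing and of the enzymes that degrade nucleic acids in macrophages: Cgas, Sting1, Tbk1, Ikbke, Irf3, Trex1, Samhd1, Dnase2a, Rnaseh2a and Rnaseh2b. They were taken by name from a list of known pathway genes, with earlier results of these data known. All 10 were found among the 22186 genes of the table. Poly(A) RNA was sequenced from RAW264.7 cells, a macrophage-like line grown from a mouse tumour and labelled wild type. There were 5 libraries of cells kept for 24 h in medium with doxorubicin, an anthracycline drug that poisons topoisomerase II, and 5 libraries of cells kept in medium. The series title asks whether doxorubicin brings about a senescence-associated secretory phenotype. The labels disagree on the dose: 10 nM in the sample titles, 100 nM in the design text, which corrects the titles to it, and 1000 nM by the dilution that the treatment protocol describes. The solvent, dimethyl sulfoxide, is named for the doxorubicin cultures only. No label ties the libraries of a group to separate cultures, and the p-values therefore cover only the spread among these libraries, which may be technical.

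The sensor cGAS, the product of Cgas, binds double-stranded DNA outside the nucleus and makes the cyclic dinucleotide cGAMP, which activates the membrane adaptor STING. STING recruits the kinase TBK1 and its relative IKK epsilon, and these phosphorylate the transcription factor IRF3, which then enters the nucleus and switches on interferon beta and other target genes. The exonuclease TREX1, the lysosomal DNase II, the dNTP hydrolase SAMHD1 and the RNase H2 complex limit the nucleic acid that can trigger such sensors, and their inherited loss in humans is known for interferon-driven inflammation.

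Values are FPKM, fragments scaled to transcript length and library size, as the authors deposited them, and they summed to 338293 to 356111 per library. The files hold no read totals, so the depth is unknown. The macrophage label was checked against fixed markers: 8 of 10 macrophage genes averaged at least 1 FPKM (Lyz2, lysozyme, averaged 522 FPKM), with summed levels of 1429 to 1635 FPKM in doxorubicin and 1360 to 1504 FPKM in medium libraries. Of the markers of other cells, 1 of 6 neutrophil genes (S100a8, 1.10 FPKM) and none of 7 lymphocyte, 6 dendritic cell and 11 fibroblast, epithelial and endothelial genes averaged 1 FPKM. S100a9, Ly6g, Cd3e, Cd8a, Col1a2, Dcn, Krt8 and Krt18 were at 0 in every library. The treatment was visible in Cdkn1a, the p53-induced inhibitor of cyclin-dependent kinases, at 212, 120, 129, 132 and 143 FPKM in doxorubicin libraries 1 to 5 against 42.5, 52.1, 52.1, 54.4 and 54.0 FPKM in medium libraries 1 to 5 (log2 difference 1.48, limma adjusted p = 0.00466).

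Doxorubicin 1 and medium 1, which share replicate number 1, differed from the other 8 libraries in many genes. Ferritin heavy chain, Fth1, took 3.88% of all FPKM in doxorubicin 1 and 5.21% in medium 1, against 2.14% to 2.56% elsewhere. Several of the 10 genes shared that shift, and each was therefore also compared within the replicate numbers and without number 1.

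Differences were tested with limma on log2(FPKM + 1) over the 9869 genes that averaged 1 FPKM or more, and an adjusted p under 0.05 was called. All 10 genes passed that filter. With group as the only term, Trex1 was higher in doxorubicin libraries and no other of the 10 genes passed (1 of 10 genes higher, where 0.689% of all genes tested were called higher and 0.912% in either direction). The median log2 difference of the 10 genes was 0.0027, with 5 positive and 5 negative values, against -0.03 for all genes tested. With the replicate number as a block, 3 of the 10 were called, Trex1 and Samhd1 higher and Ikbke lower, where 21.6% of all genes were. Without number 1 and with the block, Irf3 joined them as lower, for 4 of 10 against 28.6% of all genes. The shares of the 10 genes in both blocked fits are thus near those of all genes, and are not a result about these genes as a group.

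**Figure D1:**
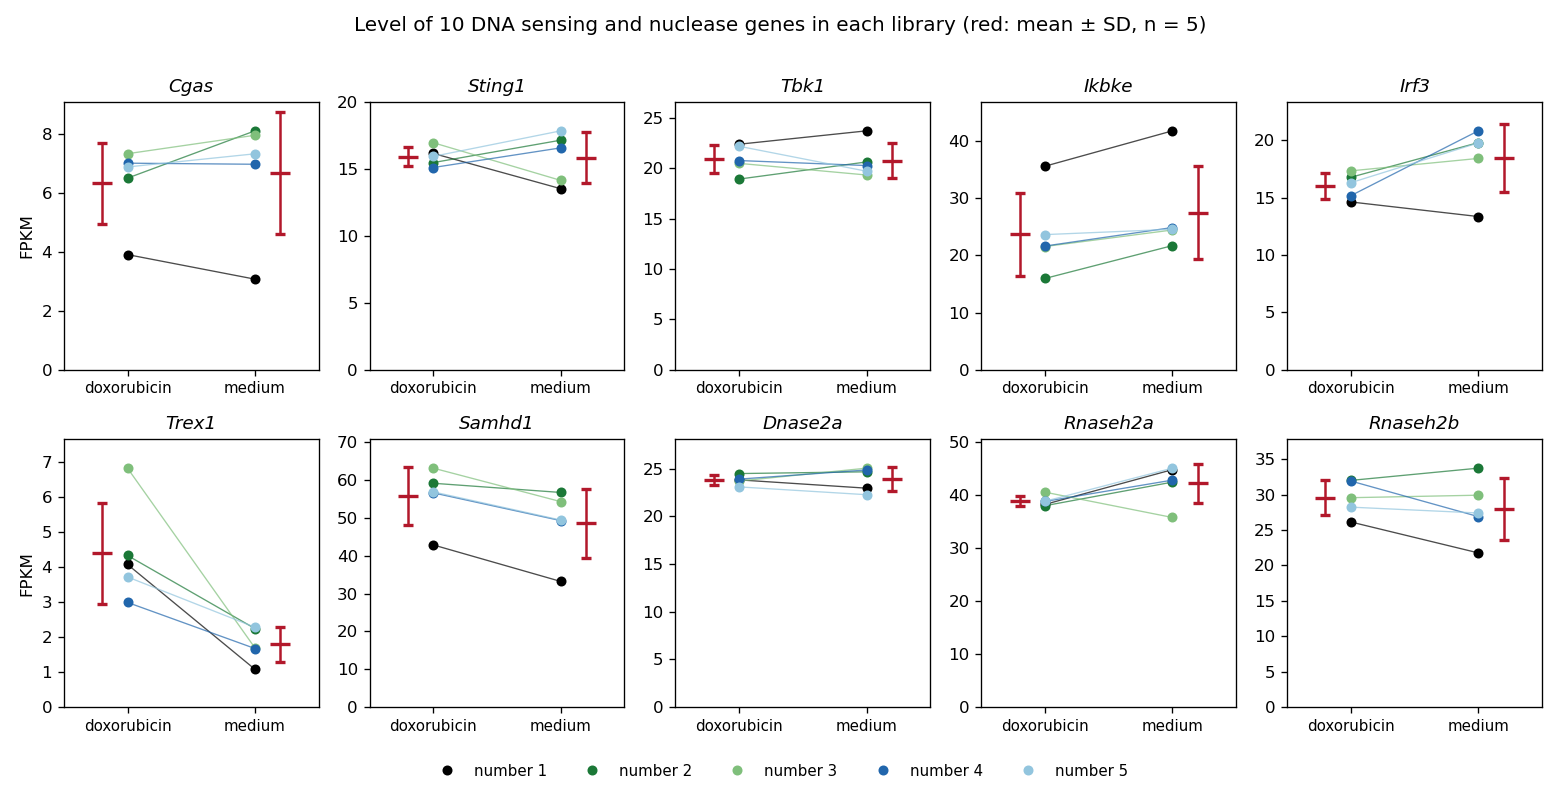
FPKM of each of the 10 genes in the 5 doxorubicin libraries (left in each panel) and the 5 medium libraries (right). Points are coloured by replicate number, lines join libraries of the same number, and red marks show the mean and SD. Trex1 is the gene whose doxorubicin libraries all lie above its medium libraries, and number 1 lies low in both groups for Cgas and Samhd1 and high in both for Ikbke.

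Trex1, the main exonuclease that removes DNA from the cytosol, was measured at 4.08, 4.33, 6.83, 2.99 and 3.72 FPKM in doxorubicin libraries 1 to 5. In medium libraries 1 to 5 it was at 1.08, 2.25, 1.69, 1.68 and 2.28 FPKM. Every doxorubicin library lay above every medium library, with doxorubicin 3 the highest and medium 1 the lowest. Trex1 was the 1 gene of the 10 whose groups did not overlap, a pattern that 6.70% of all genes tested showed in one direction or the other. The means were 4.39 ± 1.45 FPKM with doxorubicin and 1.80 ± 0.494 FPKM in medium (SD, n = 5 each), a ratio of 2.45. The log2 difference was 0.93 (SE 0.18; 95% interval 0.54 to 1.32; limma adjusted p = 0.0383), the 25th largest increase among the genes tested. On this scale the change of so low a gene is understated: with a pseudocount of 0.1 FPKM in place of 1 the log2 difference was 1.23.

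The call of Trex1 was close to the threshold. It was lost in 9 of the 10 fits that left out 1 library (limma adjusted p 0.0554 to 0.123) and was kept only without medium 1 (0.0352), while the log2 difference stayed positive in each. With no filter on low values the adjusted p was 0.0736, and over the 20 alternatives in which Trex1 was tested it ranged from 0.0016 to 0.123. The exact permutation test of the difference (two-sided) gave p = 0.00794, the smallest it can give, which became 0.118 after adjustment over all genes. That is the lowest adjusted p the test gave any gene, so it could not call Trex1. Within the replicate numbers Trex1 was higher with doxorubicin in 5 of 5, by 1.29, 0.72, 1.54, 0.58 and 0.52 on the log2 scale for numbers 1 to 5, and the fit without number 1 and with the block gave 0.84 (adjusted p = 0.00383). Numbers 2 and 3 gave larger differences than 4 and 5 (-0.58 for 4 and 5 minus 2 and 3). That interaction had an unadjusted p of 0.0159 and an adjusted p of 0.163 in limma. None of the 10 genes passed the interaction test after adjustment, where 2.52% of all genes did, and Trex1 was the 1 gene with an unadjusted p under 0.05. The sets of numbers were formed from the values, so this test describes these libraries only.

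**Figure D2:**
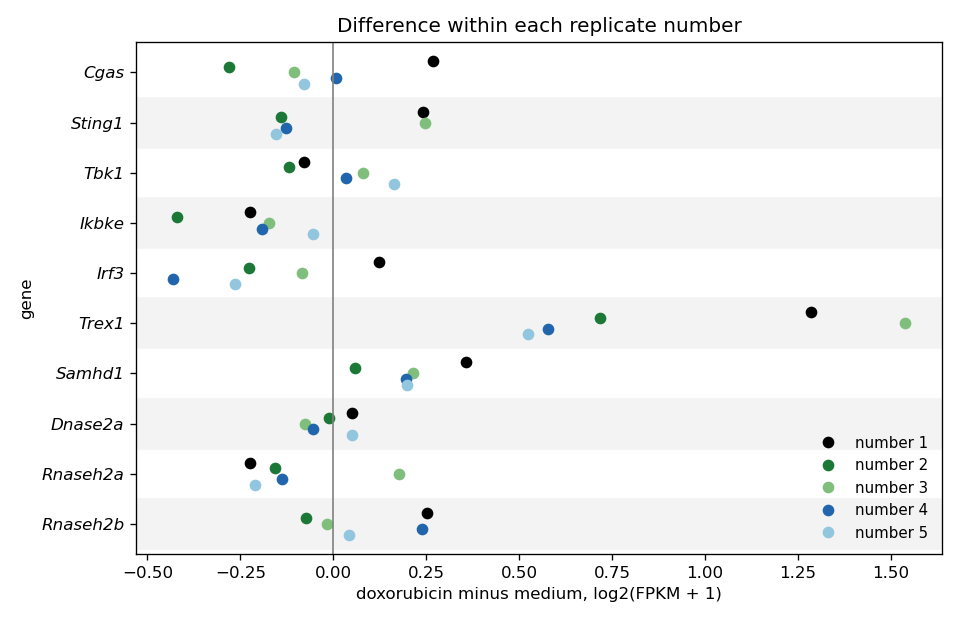
Log2 difference of doxorubicin from medium, in log2(FPKM + 1), within each of the 5 replicate numbers for the 10 genes. Trex1 and Samhd1 are above 0 in 5 of 5 numbers, and Ikbke is below 0 in 5 of 5. All the other genes change side between numbers.

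The Trex1 signal cannot be assigned to that gene with certainty. In the comprehensive GENCODE annotation of the earlier build GRCm38, all 1147 exon bases of Trex1 (100%) also lie in exons of Atrip on the same strand. Atrip encodes the partner protein of the checkpoint kinase ATR and has read-through transcripts into Trex1. Atrip was listed at 2.18, 4.12, 4.30, 2.79 and 4.43 FPKM in doxorubicin libraries 1 to 5 against 2.51, 2.46, 2.09, 3.81 and 4.84 FPKM in medium libraries 1 to 5, and its groups overlapped. The ratio of Trex1 to Atrip was 1.87, 1.05, 1.59, 1.07 and 0.839 with doxorubicin and 0.431, 0.914, 0.809, 0.440 and 0.472 in medium, so in number 2 the gap in the ratio was small and in the other numbers it was wide. The sum of both genes, a value added after the data were seen, differed by 0.59 on the log2 scale (SE 0.19, limma adjusted p = 0.1498) with group as the only term. With the replicate block the same difference had an adjusted p of 0.0358. How the authors divided reads between Trex1 and Atrip is not given in the sources used here.

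Cgas, the DNA sensor, was at 3.90, 6.49, 7.32, 6.996 and 6.87 FPKM in doxorubicin libraries 1 to 5 and at 3.07, 8.09, 7.94, 6.96 and 7.31 FPKM in medium libraries 1 to 5. Number 1 was the lowest library in both groups, and the remaining libraries of the 2 groups overlapped. The log2 difference was -0.04 (SE 0.23, limma adjusted p = 0.953), with a 95% interval of -0.54 to 0.46. Without number 1 and with the block it was -0.11, with a narrower interval of -0.25 to 0.017 (adjusted p = 0.167). In a bulk measurement such as this, fewer cells with a transcript and less of it per cell cannot be told apart.

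Sting1, the adaptor on the endoplasmic reticulum that cGAMP binds, was at 16.2, 15.5, 17.0, 15.1 and 16.0 FPKM in doxorubicin libraries 1 to 5 and at 13.5, 17.2, 14.2, 16.6 and 17.9 FPKM in medium libraries 1 to 5. The doxorubicin libraries lay inside the range of the medium libraries. The log2 difference was 0.01 (SE 0.08, 95% interval -0.17 to 0.20, limma adjusted p = 0.955), and it was positive in numbers 1 and 3 and negative in numbers 2, 4 and 5. Its sign turned to -0.04 without number 1, so no direction can be given for Sting1.

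Of the kinases, Tbk1 was at 22.4, 18.9, 20.5, 20.8 and 22.2 FPKM in doxorubicin libraries 1 to 5 and at 23.7, 20.6, 19.3, 20.3 and 19.7 FPKM in medium libraries 1 to 5. The groups overlapped almost completely (log2 difference 0.02, SE 0.07, 95% interval -0.14 to 0.18, limma adjusted p = 0.940).

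Ikbke, which encodes the inducible kinase IKK epsilon, was at 35.6, 16.0, 21.5, 21.6 and 23.6 FPKM in doxorubicin libraries 1 to 5. In medium libraries 1 to 5 it was at 41.7, 21.7, 24.4, 24.9 and 24.5 FPKM. Number 1 was far above the rest in both groups, and the groups overlapped, yet within each number the doxorubicin library was the lower one. These within-number differences were -0.23, -0.42, -0.17, -0.19 and -0.05 on the log2 scale. The difference of -0.21 was not called with group as the only term (SE 0.21, limma adjusted p = 0.639), and it was called with the replicate block (SE 0.06, adjusted p = 0.0347) and without number 1 with the block (adjusted p = 0.0277). It was not called with 3 sets of numbers (1, 2 with 3, and 4 with 5) as a block (adjusted p = 0.0515) or with library weights (0.216), and with group as the only term it was -0.06 without medium 1 and -0.37 without doxorubicin 1. The ratio of Tbk1 to Ikbke, both in FPKM, ranged from 0.629 to 1.19 with doxorubicin and from 0.568 to 0.951 in medium, and it was higher with doxorubicin in 5 of 5 numbers.

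Irf3, the transcription factor at the end of the relay, was at 14.6, 16.8, 17.3, 15.2 and 16.3 FPKM in doxorubicin libraries 1 to 5. In medium libraries 1 to 5 it was at 13.4, 19.8, 18.4, 20.8 and 19.8 FPKM. Medium 1 was the lowest of all 10 libraries, and the other 4 medium libraries lay above all 5 doxorubicin libraries. With all libraries the log2 difference was -0.18 (SE 0.11, limma adjusted p = 0.437; 0.127 with the block). In numbers 2 to 5 Irf3 averaged 16.4 ± 0.918 FPKM with doxorubicin and 19.7 ± 0.986 FPKM in medium (SD, n = 4 each), and the log2 difference was -0.25 (SE 0.06, limma adjusted p = 0.0129 with the block and 0.0368 with no block). With all 10 libraries Irf3 was called lower with library weights (-0.30, adjusted p = 0.0015) and not with group as the only term or with the block.

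Samhd1, which hydrolyses dNTPs and acts at stalled replication forks, had the highest level of the 10 genes. It was at 42.9, 59.2, 63.1, 56.6 and 56.9 FPKM in doxorubicin libraries 1 to 5 and at 33.2, 56.7, 54.3, 49.3 and 49.4 FPKM in medium libraries 1 to 5. Number 1 was the lowest in both groups and the groups overlapped, while within each number the doxorubicin library was the higher one. The log2 difference of 0.21 was not called with group as the only term (SE 0.15, limma adjusted p = 0.501) and was called with the replicate block (adjusted p = 0.0255). With group as the only term it was 0.077 without medium 1 and 0.30 without doxorubicin 1. Without number 1 and with the block it was 0.17 (95% interval 0.072 to 0.26, adjusted p = 0.0183), which is a small difference beside that of Trex1.

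Dnase2a, the gene of the lysosomal DNase II that digests DNA taken up with dead cells, was the least variable of the 10. It was at 23.8, 24.5, 23.7, 23.9 and 23.1 FPKM in doxorubicin libraries 1 to 5 and at 22.97, 24.7, 25.1, 24.9 and 22.3 FPKM in medium libraries 1 to 5. The doxorubicin libraries all lay inside the medium range, number 1 included, and the log2 difference was -0.0080 with a 95% interval of -0.13 to 0.11 (SE 0.06, limma adjusted p = 0.959). Its sign turned under upper-quartile scaling and quantile normalization (0.010 and 0.015), so no direction can be given. In the GRCm38 annotation 30% of its exon bases lie opposite exons of Mast1, and the strand setting of the authors' counting is not given in the sources used here.

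RNase H2 cuts RNA out of RNA-DNA hybrids and removes single ribonucleotides from DNA. Its catalytic subunit gene, Rnaseh2a, was at 38.3, 38.0, 40.6, 38.8 and 38.9 FPKM in doxorubicin libraries 1 to 5 and at 44.8, 42.5, 35.8, 42.8 and 45.1 FPKM in medium libraries 1 to 5. Of the medium libraries 4 lay above all doxorubicin libraries and medium 3 lay below them all (log2 difference -0.11, SE 0.07, limma adjusted p = 0.441). In the GRCm38 annotation 9.66% of its exon bases are shared with Gm49661 on the same strand.

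The accessory subunit gene Rnaseh2b was at 26.1, 32.01, 29.6, 31.9 and 28.2 FPKM in doxorubicin libraries 1 to 5 and at 21.8, 33.7, 29.9, 26.9 and 27.4 FPKM in medium libraries 1 to 5, with overlapping groups (0.09, SE 0.11, limma adjusted p = 0.717). The third subunit gene, Rnaseh2c, was at 63.0, 52.9, 57.1, 45.9 and 47.5 FPKM with doxorubicin and at 41.2, 56.6, 52.6, 42.0 and 40.6 FPKM in medium (0.19, limma adjusted p = 0.426). None of the 3 subunit genes was called with group as the only term or with the block. With library weights Rnaseh2a was called lower (-0.14, limma adjusted p = 0.0331). By FPKM the ratio of Rnaseh2a to Rnaseh2b was 1.19 to 1.46 with doxorubicin and 1.20 to 2.06 in medium, ranges that overlap.

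Since FPKM is scaled to transcript length, levels can be set against each other between genes. By mean FPKM the order with doxorubicin was Samhd1, Rnaseh2a, Rnaseh2b, Dnase2a, Ikbke, Tbk1, Irf3, Sting1, Cgas and Trex1. In medium it was Samhd1, Rnaseh2a, Rnaseh2b, Ikbke, Dnase2a, Tbk1, Irf3, Sting1, Cgas and Trex1. Samhd1 and the 2 RNase H2 subunits thus took the first 3 places and Trex1 the last in both groups. Neighbours whose ranges did not overlap with doxorubicin were Samhd1 and Rnaseh2a, Rnaseh2a and Rnaseh2b, Rnaseh2b and Dnase2a, Tbk1 and Irf3, and Sting1 and Cgas. In medium they were Rnaseh2a and Rnaseh2b, Sting1 and Cgas, and Cgas and Trex1. The ranges of the other neighbours in each order overlapped. Compared within libraries, the gene of such a pair with the higher mean led in 2 to 4 of 5 medium libraries. With doxorubicin it led in 3 or 4 of 5. Trex1 lay below Cgas in 4 of 5 doxorubicin libraries and in 5 of 5 medium libraries, with doxorubicin 1 as the exception. How reads were divided between Trex1 and Atrip is not given, so the last place of Trex1 in both orders is uncertain.

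The shift of number 1 was of like size in both groups for some genes. Relative to the other 4 libraries of its group, number 1 differed for Ikbke by 0.77 with doxorubicin and 0.78 in medium, on the log2(FPKM + 1) scale. For Cgas the values were -0.69 with doxorubicin and -1.07 in medium, for Samhd1 -0.45 with doxorubicin and -0.64 in medium, and for Irf3 -0.15 with doxorubicin and -0.53 in medium. For Trex1 they were -0.06 with doxorubicin and -0.51 in medium. Ikbke was thus high and Cgas and Samhd1 were low in number 1 by more than their doxorubicin differences, and what set number 1 apart was not tested.

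Other genes of the pathway were taken from 4 lists. Of 30 other sensors and signalling adaptors, 26 were tested, and limma called none higher or lower with group as the only term. An unadjusted limma p under 0.05 was found for 3 of the 26, against 1757 of all 9869 genes tested. The median difference was 0.01, against -0.03 for all genes. With the replicate block 4 were called higher and 3 lower, 26.9% of the list against 21.6% of all genes, a share near the background. Those higher were Ifi204 and Ifi203, of the interferon-inducible DNA-binding family (Ifi203 passed the filter through the doxorubicin group), Pycard, the inflammasome adaptor ASC, and Irf7, the relative of Irf3 that amplifies interferon. Ifi204 averaged 3.09 ± 0.930 FPKM with doxorubicin and 1.69 ± 0.637 FPKM in medium (0.62, adjusted p = 0.0119 with the block), and Irf7 averaged 10.98 ± 3.53 FPKM with doxorubicin and 7.54 ± 3.30 FPKM in medium (0.58, adjusted p = 0.0233 with the block). Without medium 1, at 1.67 FPKM, the difference of Irf7 with group as the only term was 0.20. Those lower were Aim2, the DNA sensor of the inflammasome, Hmgb2, a chromatin protein that promotes nucleic acid sensing, and Rad50, of the break-repair complex. Hmgb2 averaged 77.7 ± 18.2 FPKM with doxorubicin and 98.7 ± 26.2 FPKM in medium (-0.33, adjusted p = 0.00880 with the block), and with group as the only term the difference was -0.15 without doxorubicin 1 and -0.53 without medium 1.

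Of 30 regulators of cGAS, STING and cGAMP, 26 were tested. None was called with group as the only term in limma, and the median difference was -0.01. Only 1 of the 26 had an unadjusted limma p under 0.05, against 1757 of all 9869 genes tested. With the block Ifi35 was called higher and 3 genes lower, 15.4% of the list against 21.6% of all genes. These were Lrrc8d, a subunit of the volume-regulated anion channels, some of which carry cGAMP, Npc1, the lysosomal cholesterol transporter, and Banf1. Banf1, the chromatin-binding factor that keeps cGAS off nuclear DNA, averaged 156 ± 5.66 FPKM with doxorubicin and 173 ± 2.83 FPKM in medium (-0.15, adjusted p = 0.0397 with the block and 0.165 without it), and its 5 doxorubicin libraries all lay below the 5 medium libraries.

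Of 24 other enzymes that degrade DNA or RNA, 20 were tested, and limma called none with group as the only term. Only 1 of the 20 had an unadjusted limma p under 0.05, against 1757 of all 9869 genes tested. The median difference was -0.0068. With the block Pld3 and Fen1 were called higher and Mgme1 lower, 15% of the list against 21.6% of all genes. Fen1, the flap endonuclease of replication and repair, averaged 52.6 ± 8.17 FPKM with doxorubicin and 41.6 ± 14.3 FPKM in medium (0.39, adjusted p = 0.0302 with the block). Pld3, a lysosomal exonuclease of single-stranded nucleic acid, averaged 58.8 ± 23.9 FPKM with doxorubicin and 48.5 ± 32.7 FPKM in medium (0.38, adjusted p = 0.0263 with the block), and its number 1 libraries were far above the rest in both groups. With group as the only term the difference of Pld3 was 0.17 without doxorubicin 1 and 0.70 without medium 1, and that of Fen1 was 0.19 without medium 1. The exonuclease gene Trex2 and Dnase2b were at 0 in every library.

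**Figure D3:**
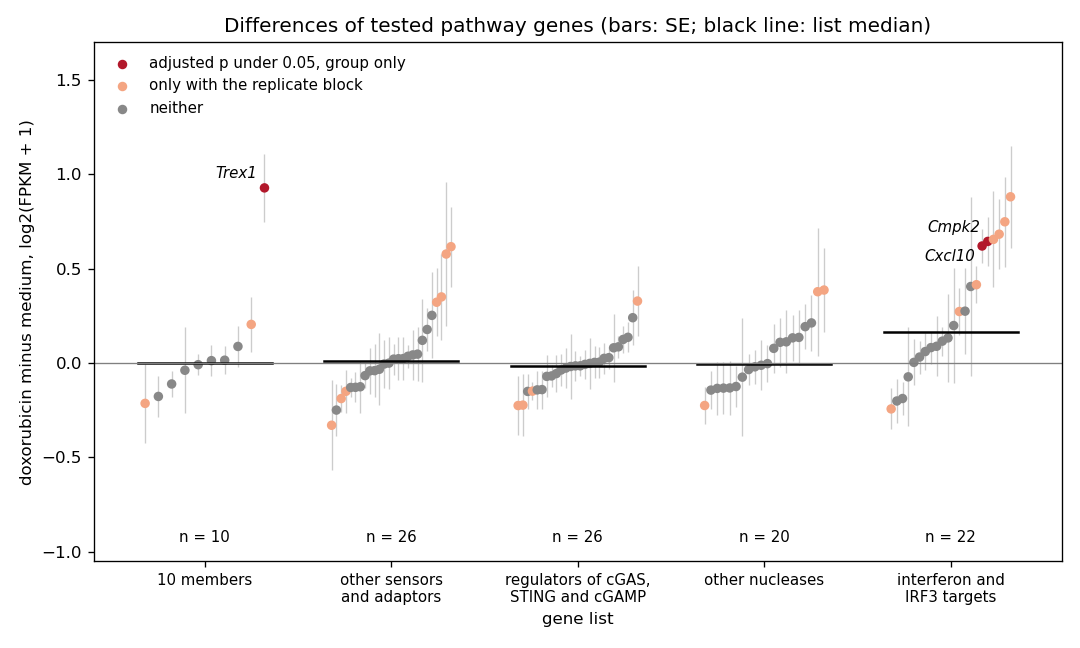
Log2 difference of doxorubicin from medium, in log2(FPKM + 1), with its SE, for the tested genes of 5 lists, each drawn in rising order with its median as a black line. Trex1, Cmpk2 and Cxcl10 are the genes called with group as the only term, and the interferon and IRF3 targets have the highest median, 0.17.

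Of 30 interferon and IRF3 target genes, 22 were tested. Cxcl10 and Cmpk2 were called higher and none lower with group as the only term, 9.09% of the list against 0.689% of all genes called higher and 0.912% in either direction. With the block 8 were called higher and 1 lower, 40.9% of the list against 21.6% of all genes. The median difference was 0.17, with 18 positive and 4 negative, against -0.03 for all genes. The groups did not overlap for 5 of the 22 genes, all 5 higher with doxorubicin (22.7%, against 6.70% of all genes in either direction). Within the replicate numbers, the median over the 22 genes was 0.45, 0.094, 0.20, 0.082 and 0.20 for numbers 1 to 5, against 0.015, -0.073, 0.0041, -0.033 and -0.034 for all genes. Cxcl10 passed the filter through the doxorubicin group alone, and the list was chosen with earlier results known, so these counts are a description.

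Cxcl10, a chemokine that IRF3 and interferon induce, was at 1.52, 1.49, 2.24, 1.45 and 1.96 FPKM in doxorubicin libraries 1 to 5 and at 0.849, 0.659, 0.882, 0.698 and 0.752 FPKM in medium libraries 1 to 5. All doxorubicin libraries lay above all medium libraries (log2 difference 0.62, SE 0.09, limma adjusted p = 0.0154), and Cxcl10 passed the filter through the doxorubicin group. Cmpk2, an interferon-induced mitochondrial nucleotide kinase, was at 2.43, 1.82, 2.70, 2.34 and 2.19 FPKM with doxorubicin and at 0.508, 1.32, 1.34, 1.32 and 1.15 FPKM in medium (0.65, SE 0.13, limma adjusted p = 0.0480). Its groups did not overlap either, and medium 1 was the lowest library. With 1 library left out, the call of Cmpk2 was lost in 9 of 10 limma fits (adjusted p up to 0.125). That of Cxcl10 was lost in 2 of 10 (up to 0.0581). The exact permutation test gave both genes its smallest p, 0.00794, which became 0.118 after adjustment. No gene could be called by that test, so it says nothing about these calls.

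Those called higher with the block also held Isg15, the ubiquitin-like modifier, and Ccl5, a chemokine. They further held Oasl1, Trim25, Rsad2 and Ifi27l2a, and the gene called lower was Zc3hav1, the antiviral zinc finger protein ZAP. Isg15 averaged 3.61 ± 0.663 FPKM with doxorubicin and 1.93 ± 0.694 FPKM in medium (0.68, limma adjusted p = 0.0203 with the block), without overlap. Oasl1, an inhibitor of Irf7 translation in mice, averaged 26.1 ± 1.45 FPKM with doxorubicin and 19.5 ± 2.97 FPKM in medium (0.42, adjusted p = 0.00871 with the block), also without overlap. Rsad2, the antiviral enzyme viperin, averaged 3.56 ± 2.61 FPKM with doxorubicin and 1.25 ± 0.268 FPKM in medium (0.88, adjusted p = 0.0107 with the block), and its groups overlapped. Its mean with doxorubicin was raised by doxorubicin 1, at 8.14 FPKM against 1.66 to 2.85 FPKM in the other doxorubicin libraries. Without number 1 and with the block the difference of Rsad2 was 0.66.

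Ifnb1, interferon beta itself, was listed at 0 in 3 of 5 doxorubicin libraries, with 0.0646 FPKM in doxorubicin 2 and 0.199 FPKM in doxorubicin 4, and at 0 in all 5 medium libraries. It was below the filter and was not tested. Below the filter too, and chosen after its values were seen, Ifit1 was at 1.67, 1.02, 1.61, 0.927 and 1.43 FPKM with doxorubicin and at 0.126, 0.426, 0.499, 0.354 and 0.371 FPKM in medium. Those groups did not overlap (log2 difference 0.78). Since Ifit1 was picked by its values, no p-value is given for it. Of the other target genes below the filter, Ifit3 and Ifit3b did not overlap either, with Ifit3b at 0 to 0.0781 FPKM in medium. Oasl2, Ifi44 and Ddx60 overlapped, and Ifna4 was at 0 in every library. The share of all genes below the filter whose groups do not overlap was not counted, so these patterns have no background. Trex1 is itself known as an interferon-induced gene, and whether its difference and those of the target genes are linked was not tested.

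Promoter windows of 250 bases before to 50 after the start site were read from RefSeq (GRCm38.p6) for the 8 members matched by symbol and for Cxcl10, Cmpk2 and Cdkn1a. They were searched on both strands for the AP-1 motif TGANTCA (in 7.81% of 32851 windows), the interferon-response core, a pair of GAAA repeats spaced by 2 bases (3.44%), and the 10-base p53 half-site (8.36%). The Trex1 windows held no match to any of the 3. Ikbke held an AP-1 match, first base at -6, and Cxcl10, the target gene with the smallest p of its list, held an interferon-response core at -213 and an AP-1 match at -74. Cmpk2, the other target gene called, held no match to any of the 3, nor did the other 6 members, and of the 2 Cdkn1a windows 1 held 2 matches to the p53 half-site. Stretches with the Ikbke and Cxcl10 matches are shown on the gene strand, with the matches in capitals, and a match is not evidence of binding. They run from 20 bases before to 10 after the start site for Ikbke and from 250 before to 10 after for Cxcl10. The Cdkn1a matches are not shown. All 30 bases of the Ikbke stretch lie in annotated exons. The 2 stretches lie at chr1:131279554-131279583 (minus strand) for Ikbke and at chr5:92348880-92349139 (minus strand) for Cxcl10.
Ikbke: gagagagagagaagTGAATCAggaagtatg
Cxcl10: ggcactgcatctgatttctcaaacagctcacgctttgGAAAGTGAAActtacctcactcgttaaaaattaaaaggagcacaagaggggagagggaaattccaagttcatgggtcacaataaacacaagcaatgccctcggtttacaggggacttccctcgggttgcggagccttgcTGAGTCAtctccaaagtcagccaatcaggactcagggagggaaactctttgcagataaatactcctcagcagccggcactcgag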

How the data were processed

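The authors deposited 1 table of FPKM values, per the labels' naming of its 10 columns, with 22186 genes by symbol. RNA was enriched for poly(A), per the labels' protocols. Per the submitters' processing notes the genome build was GRCm39. Aligner, quantifier, annotation and strand setting are not given in the sources used here.

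From these values log2(FPKM + 1) was computed, and the 9869 genes that averaged 1 FPKM or more were tested (15731 were above 0 in some library). The test was limma 3.58.1 in R 4.3.3, with a mean-variance trend, group as the only term, two-sided, and Benjamini-Hochberg adjustment over all genes tested, with calls at an adjusted p under 0.05. Intervals are at 95% and cover the spread between these libraries only. The code was tested on simulated data. The table holds no counts, so depth is unknown and sets no interval or detection limit.

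Both groups carry replicate numbers 1 to 5. Deviations of same-numbered libraries from their group means correlated at 0.79, 0.70, 0.67, 0.52 and 0.55, so the number was used as a block in a second fit, given where it changes a call. Numbers 2 and 3 also correlated with each other across groups (0.69 and 0.59), as did 4 and 5 (0.51 both ways). Doxorubicin 3 correlated more with medium 2 (0.69) than with medium 3 (0.67). Within these sets the values thus do not clearly show which libraries are pairs, which limits the fits with the replicate block.

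The members, gene lists and tests were chosen with earlier results of these data known. All 10 members were named, Rnaseh2c, Ifnb1 and Cdkn1a always, and from each of the 4 lists up to 6 tested genes with the smallest p in either fit. Atrip was named for its overlap, and Ifit1 and the other target genes below the filter after their values were seen. The alternatives were another pseudocount, 2 other filters, 2 scalings, blocks, libraries left out, library weights and an exact permutation test. Exon overlaps and promoters came from GRCm38 references, matched by symbol only. The gene Mnda was not analysed here.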

Additional observations from a re-analysis of the deposited data

Results flagged for a closer look

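The 10 genes, the genes of the 4 lists that the naming rule gave, and Cdkn1a, Trim25, Zc3hav1, Ifit1, Ifnb1 and Atrip were checked in each group of 5 libraries. On the log2(FPKM + 1) scale, a library was marked where its gap to its nearest neighbour took more of the group's range than Dixon's 95% limit allows. Chance alone marks about 1 in 20 groups, and 27 of 97 were marked. Of these, 25 were libraries of number 1. Among the 10 genes, the share of the log2 range was 0.802 for Cgas in doxorubicin 1 (3.90 FPKM, others 6.49 to 7.32) and 0.835 in medium 1 (3.07, others 6.96 to 8.09). It was 0.794 for Ikbke in medium 1 (41.7 FPKM, others 21.7 to 24.9) and 0.721 for Irf3 in medium 1 (13.4, others 18.4 to 20.8). Samhd1 had 0.718 in doxorubicin 1 and 0.736 in medium 1, both low. Rnaseh2a was low in medium 3 (35.8 FPKM, others 42.5 to 45.1), with a gap of 0.740.

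Among the other genes, medium 1 stood apart low for Ifi204 (0.864), Ifi203 (0.740), Irf7 (0.931, at 1.67 FPKM against 8.42 to 9.33), Eri1 (0.721), Cmpk2 (0.808), Isg15 (0.824) and Ifi27l2a (0.850). It stood apart high for Traf6 (0.896), Pycard (0.856) and Dtx4 (0.753). Hmgb2 was low in doxorubicin 1 (0.842) and medium 1 (0.799), and Pld3 was high in doxorubicin 1 (0.752) and medium 1 (0.880). Ulk1 was high in doxorubicin 1 (0.740) and low in medium 3 (0.802). Ccl5 was high in doxorubicin 1 (0.837, at 5.82 FPKM against 1.83 to 2.27). Cdkn1a was low in medium 1 (0.825), and Trim25 was high in doxorubicin 1 (0.784) and medium 1 (0.871).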

How the results depend on the processing

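Of all genes tested, limma called 90 with group as the only term. The count was 57 with a filter at a mean of 5 FPKM, 2127 with the replicate block, 3168 with 3 sets of numbers as a block, 556 without number 1, 2827 without number 1 with the replicate block, 3681 with library weights, 0 by exact permutation, and 15 to 226 with 1 library left out. At an unadjusted p under 0.05, limma had 1757. The exact permutation test could call no gene, because its smallest p became 0.118 after adjustment over all genes. Of the 10 genes 1 was called. The count was 0 with no filter, 0 at 5 FPKM (where Trex1 is not tested), 3 with the replicate block, 2 with the 3 sets, 2 without number 1, 4 without number 1 with the replicate block, 4 with library weights, 0 by permutation, and 0 to 1 with 1 library left out. The replicate block changed the calls of Ikbke and Samhd1 and of no other of the 10. Within numbers 2 to 5, 4 were called, 0 with no filter, 2 with no replicate block, and 1 to 3 with 1 number left out. The interaction called 0 under each alternative.

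Signs turned for 4 genes that were never called. Cgas was 0.014 after quantile normalization and -0.25 to 0.10 with 1 library left out. Sting1 was -0.043 without number 1 in both fits, -0.081 with library weights and -0.038 to 0.056 with 1 library left out. Tbk1 was -0.0078 to 0.063 with 1 library left out. Dnase2a was 0.010 under upper-quartile scaling, 0.015 after quantile normalization and -0.033 to 0.0078 with 1 library left out. Of 209 values of the 10 genes under these alternatives, 167 kept direction and side of the threshold. Unless stated, the cause was not tested.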
